A study of Drosophila melanogaster with 3 samples.

Results

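The X chromosome carried 904 of the 5746 reproducible binding peaks of gooseberry-neuro (Gsb-n) recorded in whole fruit fly embryos. A peak belonged here when its list entry lay on X, and no measured value entered that choice. The comparison set is the 4814 peaks on the 4 large autosomal arms 2L, 2R, 3L and 3R, and the 28 peaks on the small chromosome 4 were left aside. The data are chromatin immunoprecipitation followed by sequencing on embryos 4 to 14 hours old, from a transgenic Drosophila melanogaster line with green fluorescent protein fused to the C-terminus of Gsb-n. An antibody against the fluorescent protein pulled down the chromatin. The 3 samples are biological replicates of this 1 group. No untagged or untreated embryos are among the samples used here, so background recovery could not be measured. The labels give an insertion targeting D. melanogaster gsb-n, and the sources used here name neither the promoter nor the exact insertion site of the tagged copy. Sex was not recorded, and the embryos were whole. Weak recovery in many cells and strong recovery in few cannot be told apart in such tissue. Each replicate has a list of 30000 relaxed peaks. The reproducible list comes from an irreproducible discovery rate (IDR) threshold, applied to these lists and to a list of 30000 pooled peaks, and equals the strongest entries of the pooled list. Read depth is unknown because no list holds counts.

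Gsb-n belongs to the Pax family: it binds DNA through its paired domain and its homeodomain, and acts in the nervous system of the embryo. In Drosophila, males carry a single X and females carry a pair, and the MSL complex, guided by the roX RNAs, raises transcription along the male X. X-linked genes also count the X chromosomes in the early embryo through Sex-lethal (Sxl), the switch gene of female development. Repeats of GA and CA are known to be common on this chromosome, and GA-rich elements serve as entry sites of the MSL complex.

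The windows below show the sequence at the strongest X peaks near a TSS (transcription start site), in introns and between genes, as far as they hold at most 30 bases of untranslated sequence. They run 50 bases to each side of the summit, on the plus strand of the dm6 assembly, read from RefSeq's copy of genome release 6. Capitals mark TAATTA, the homeodomain core, which is the only 1 of 10 searched motifs found in these 6 windows.
Ugalt, within 500 bp of a TSS, chrX:2703831-2703931: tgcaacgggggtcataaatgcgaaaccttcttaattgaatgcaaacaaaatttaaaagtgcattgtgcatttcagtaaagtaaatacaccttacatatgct
ph-p, intron within 500 bp of a TSS, chrX:2137281-2137381: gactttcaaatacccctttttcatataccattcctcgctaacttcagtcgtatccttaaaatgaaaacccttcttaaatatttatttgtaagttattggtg
Tlk, intron, chrX:3742185-3742285: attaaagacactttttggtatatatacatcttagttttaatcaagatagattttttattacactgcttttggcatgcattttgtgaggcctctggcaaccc
CG32772, intron, chrX:4910336-4910436: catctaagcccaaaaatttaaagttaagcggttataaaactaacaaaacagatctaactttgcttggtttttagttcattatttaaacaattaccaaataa
Hr4, intron, chrX:1947700-1947800: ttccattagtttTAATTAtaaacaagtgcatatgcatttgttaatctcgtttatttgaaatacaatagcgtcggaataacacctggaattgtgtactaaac
ph-d, intergenic, chrX:2124113-2124213: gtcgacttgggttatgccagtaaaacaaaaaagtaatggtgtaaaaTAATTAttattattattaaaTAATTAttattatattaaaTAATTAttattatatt
These windows are rich in A and T: their GC content was 33.7%, 31.7%, 32.7%, 25.7%, 29.7% and 15.8% in the order printed, against 42.5% for the whole of X. The ph-d window holds the homeodomain core 3 times within a run of A and T, the Hr4 window holds it 1 time, and the other windows hold none of the 10 motifs.

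The strongest X peak lay 29 bp from the TSS of Ugalt, a UDP-galactose transporter gene. Its signal, the deposited signal value on the authors' scale, was 2250 in the reproducible list, and it ranked 18, 14 and 8 among the 30000 peaks of replicates 1, 2 and 3. Polyhomeotic proximal (ph-p), a Polycomb group gene, held the next (signal 2195, ranks 12, 13 and 17) and also the sixth highest (signal 1679, ranks 24, 50 and 55), 476 and 445 bp from a TSS. Its neighbour and paralogue ph-d had a further 3 peaks, the highest with a signal of 889.1. In an intron of Tlk, the Tousled-like kinase gene, a peak 2338 bp from the nearest TSS had a signal of 1989 and ranks 25, 28 and 36. CG32772 followed with a signal of 1848 and ranks 35, 36 and 33.

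Below these, the order varied more between replicates. The peak nearest to CG4004 (signal 1759) lay in an exon of the non-coding gene lncRNA:CR44619, at ranks 26, 75 and 60. The peak at bves (signal 1471) had ranks 95, 47 and 73, and the peak in an intron of Hr4 (signal 1466), a nuclear receptor gene of the ecdysone response, had ranks 89, 48 and 84. CBP (signal 1459), the glycolytic gene Gapdh2 (signal 1413), Dok (signal 1352), a second CG4004 peak (signal 1313), LPCAT (signal 1261), the MAP kinase kinase kinase gene Raf (signal 1231) and Tis11 (signal 1227), which encodes an mRNA decay factor, complete the 15 highest. All 15 lay within the top 146 of every replicate's list. Because the reproducible list itself rests on these replicates, the ranks describe the peaks and test nothing.

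**Figure D1:**
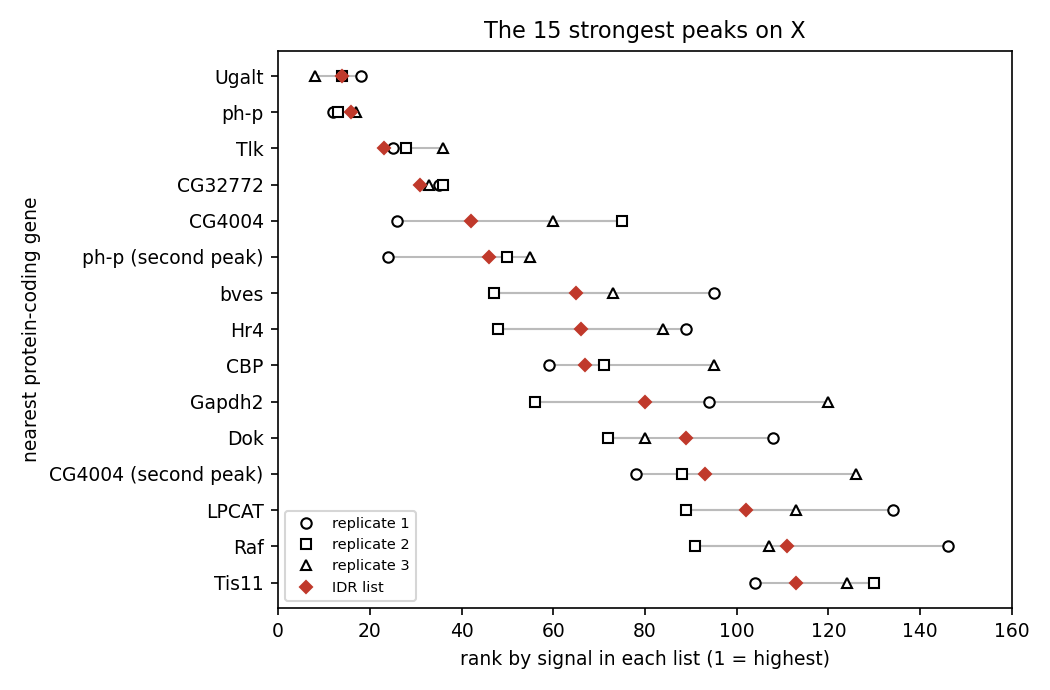
Ranks by signal of the 15 strongest X peaks (vertical axis, named by the nearest protein-coding gene) in the IDR list (red diamonds) and in each replicate's own list of 30000 peaks (open symbols; horizontal axis, rank 1 is the highest). The 4 strongest peaks, at Ugalt, ph-p, Tlk and CG32772, keep ranks of 36 or better in all 3 replicates, the second ph-p peak does not, and lower peaks such as Gapdh2 spread from 56 to 120.

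Over full arm length X carried fewer peaks than 2L, 3L and 3R and about as many as 2R, and its reproducible peaks were about as strong. By the median of 1 Mb bins it had fewer peaks than each of the 4 autosomal arms. There were 38.4 peaks per Mb on X and 44.2 per Mb on the 4 autosomal arms together, a ratio of 0.869. Arm 2R had 38.7 peaks per Mb, close to X, and 3R, 3L and 2L had 43.0, 45.8 and 49.8. In the top 5746 peaks of each replicate's own list, X had 40.7, 36.3 and 36.5 peaks per Mb, against 43.7, 44.6 and 44.6 on the autosomal arms. The ratio averaged 0.855 ± 0.0665 (SD, n = 3) and was below 1 in 3 of 3 replicates, with replicate 1 the nearest to 1 at 0.932. The exact two-sided sign-flip permutation test over the 3 replicates gave p = 0.25, the smallest this test can give with 3, so it cannot pass a threshold of 0.05 for any comparison here. Counted per protein-coding gene the ratio was 0.998, at 412 peaks per 1000 genes on X and 413 on the autosomal arms. The shortfall per Mb was larger among peaks within 500 bp of a TSS (ratio 0.789) than among the other peaks (0.922), a contrast that was not tested. Along X the 23 full 1 Mb bins held 3 to 72 peaks with a median of 39.0. The fullest was the eighth bin (7000001 to 8000000), the last full bin had 3, and the longest stretch without a summit, 859613 bp, ran from 21631725 to 22491338. Each autosomal arm had a higher median per bin: 52.0 on 2L, 46.0 on 2R, 47.5 on 3L and 47.0 on 3R. Full bins without a peak numbered 4 on 2R, 5 on 3L, 4 on 3R, and 0 on X and 2L.

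The median signal was 249.1 on X (95% interval 239.9 to 261.3) and 250.7 on the autosomal arms (246.9 to 255.9), a ratio of 0.994. Single autosomal arms had medians from 244.2 on 3R to 260.6 on 2L, so X lay inside their range. The upper tail was also alike: the 90th percentile was 601.2 on X, with 585.7 to 677.3 on the single arms. Among the top 5746 peaks of each replicate, the ratio of medians was 0.980, 0.988 and 0.980, lower on X in 3 of 3 replicates (exact two-sided sign-flip permutation p = 0.25, the smallest possible). Their mean was 0.982 ± 0.00476 (SD, n = 3). The reproducible list ends at nearly the same signal on every arm (158.2 or 158.3), which limits how far its medians can differ. In the longer pooled list the median was 71.15 (69.57 to 72.8) on X and 74.76 (73.9 to 75.5) on the autosomal arms. Over the full lists of replicates 1, 2 and 3 the ratio of medians was 0.973, 0.95 and 0.967. X held 12 of the 100 strongest reproducible peaks (12.0%, 95% Wilson interval 7.0 to 19.8), 167 of the strongest 1000 (16.7%, 14.5 to 19.1) and 15.7% of the whole list, beside 17.6% of the length of the 6 arms. Of the 5045 pooled peaks on X, 17.9% (16.9 to 19.0) were kept in the reproducible list, against 19.4% (18.9 to 19.9) on the autosomal arms and 19.2% over all arms. Arm 3L, with 18.0%, was close to X. The embryos were not separated by sex, and the part of X copy number in any of these values was not tested.

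**Figure D2:**
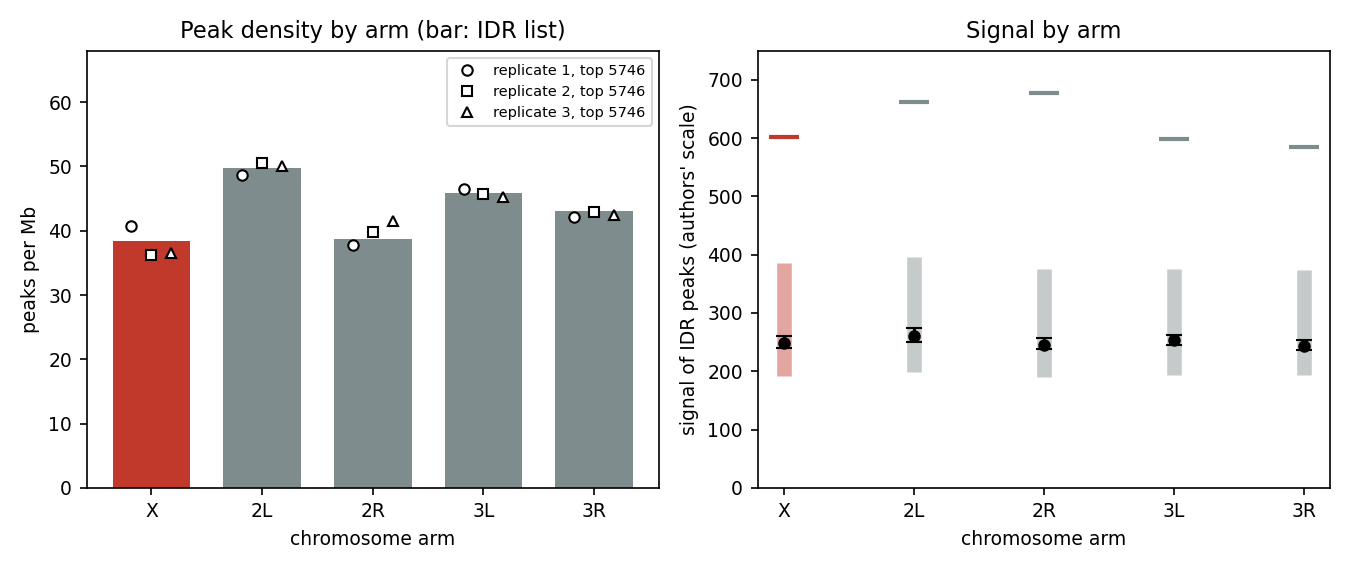
Left, peaks per Mb on X and on each large autosomal arm; bars show the IDR list and open symbols the top 5746 peaks of each replicate. Right, the signal of IDR peaks on the authors' scale, with the median and its 95% interval (black), the quartiles (shaded bar) and the 90th percentile (dash). Over full arm length X has 38.4 peaks per Mb, beside 38.7 on 2R, and its median signal of 249.1 lies between those of 3R (244.2) and 2L (260.6).

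Peaks on X had a matching summit in all replicates slightly more often than others. Of the 904, 832 (92.0%, 95% Wilson interval 90.1 to 93.6) had a summit within 100 bp in all 3 full replicate lists, 65 had it in 2, 7 in 1 and 0 in none. On the autosomal arms 88.9% (88.0 to 89.7) had it in all 3, with 87.8% to 89.7% on single arms. The share whose matching summit was also among the top 5746 of every replicate was 57.9% (54.6 to 61.0) on X and 56.6% (55.2 to 58.0) on the autosomal arms. The reproducible list was made from these same lists, so these shares are descriptions.

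The clearest difference of X was the place of its peaks: they lay in introns more often, and between genes less often, than those of any other large arm. Introns held 454 X summits (50.2%, 95% Wilson interval 47.0 to 53.5), against 36.0% (34.6 to 37.3) on the autosomal arms and 33.1% to 38.5% on single arms. Intergenic sequence held 102 (11.3%, 9.38 to 13.5), against 22.3% (21.2 to 23.5), with 2R lowest of the autosomal arms at 16.0% and 3L highest at 28.6%. The intron share exceeded the autosomal one by 14.2 percentage points (95% interval 10.7 to 17.8) and the intergenic share was lower by 11.0 (8.54 to 13.3). In the replicates' own top peaks the intron share was 49.5%, 48.5% and 43.4% on X, against 36.1%, 35.5% and 31.3% on the autosomal arms, a difference of 12.9 ± 0.658 percentage points (SD, n = 3). That difference was positive in 3 of 3 replicates and far larger than its SD, and the exact two-sided sign-flip permutation p was 0.25, the smallest possible. The intergenic share was 10.1%, 11.7% and 10.6% on X, against 22.0%, 22.1% and 20.4% on the autosomal arms, lower in 3 of 3 replicates (exact two-sided sign-flip permutation p = 0.25).

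The chromosomes themselves differ in layout: introns make up 43.3% of X and 38.6% of the autosomal arms, and intergenic sequence 22.6% and 28.4%. Relative to sequence, X introns held 1.16 times as many peaks as their length predicts (95% interval 1.08 to 1.23), and autosomal introns 0.933 times (0.898 to 0.968). Arm 3R has nearly the same intron content as X, 43.1%, and its introns held 0.894 times, while 2R was nearest to X at 1.04 times. In the replicates' own top peaks X introns held 1.14, 1.12 and 1.0 times the number that length predicts, against 0.936, 0.919 and 0.812 times on the autosomal arms. Replicate 3 thus had no excess in X introns over their length, but was above the autosomal arms like the others. X intergenic sequence held 0.5 times its expected number (0.416 to 0.599), and autosomal intergenic sequence 0.787 times (0.747 to 0.83), with 2R again nearest at 0.542. Relative to sequence, the intervals of 2R overlapped those of X in both classes (introns 0.958 to 1.12, intergenic 0.468 to 0.624). Shares of sequence here and below go by full arm length. That length includes 1 Mb bins without a reproducible peak: 4 on 2R, 5 on 3L, 4 on 3R, and 0 on X and 2L. The part of such bins in these ratios was not tested. In the pooled list of relaxed peaks the intron difference was smaller, 9.55 percentage points, and the intergenic one was -11.2, both in the same direction as among the reproducible peaks (an alternative chosen after seeing the data). Relative to sequence, pooled peaks in introns were at 1.21 times on X (1.18 to 1.25), 1.2 on 2R (1.16 to 1.24) and 1.12 on the autosomal arms together. Between genes they were at 0.756 (0.711 to 0.803), 0.78 (0.741 to 0.82) and 0.997, so 2R was like X there.

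At promoters X peaks were slightly less frequent than on the other arms together, and nearly as enriched over sequence. Within 500 bp of a TSS lay 323 X summits (35.7%, 95% Wilson interval 32.7 to 38.9), against 39.4% (38.0 to 40.8) on the autosomal arms, a difference of -3.66 percentage points (-7.01 to -0.194). The replicates gave 37.8%, 36.8% and 43.4% on X, against 39.7%, 40.1% and 46.0% on the autosomal arms, a difference of -2.58 ± 0.681 percentage points (SD, n = 3; lower in 3 of 3, exact two-sided sign-flip permutation p = 0.25). Arm 3L had 36.0%, within counting error of X. Such sequence makes up 12.6% of X and 13.8% of the autosomal arms, and peaks there were 2.83 and 2.86 times as frequent as its length predicts. In the pooled list the promoter difference changed sign, to 0.842 percentage points. Other exons held 25 X summits (2.77%) and 2.31% of autosomal summits, with overlapping intervals. X promoter peaks had a median signal of 274.1 (249.4 to 297.6), intronic peaks 248.0 (235.2 to 261.9) and intergenic peaks 227.4 (206.0 to 244.6). The matching autosomal medians were 264.9, 247.3 and 239.7, and each lay inside the interval of the X median of its class.

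**Figure D3:**
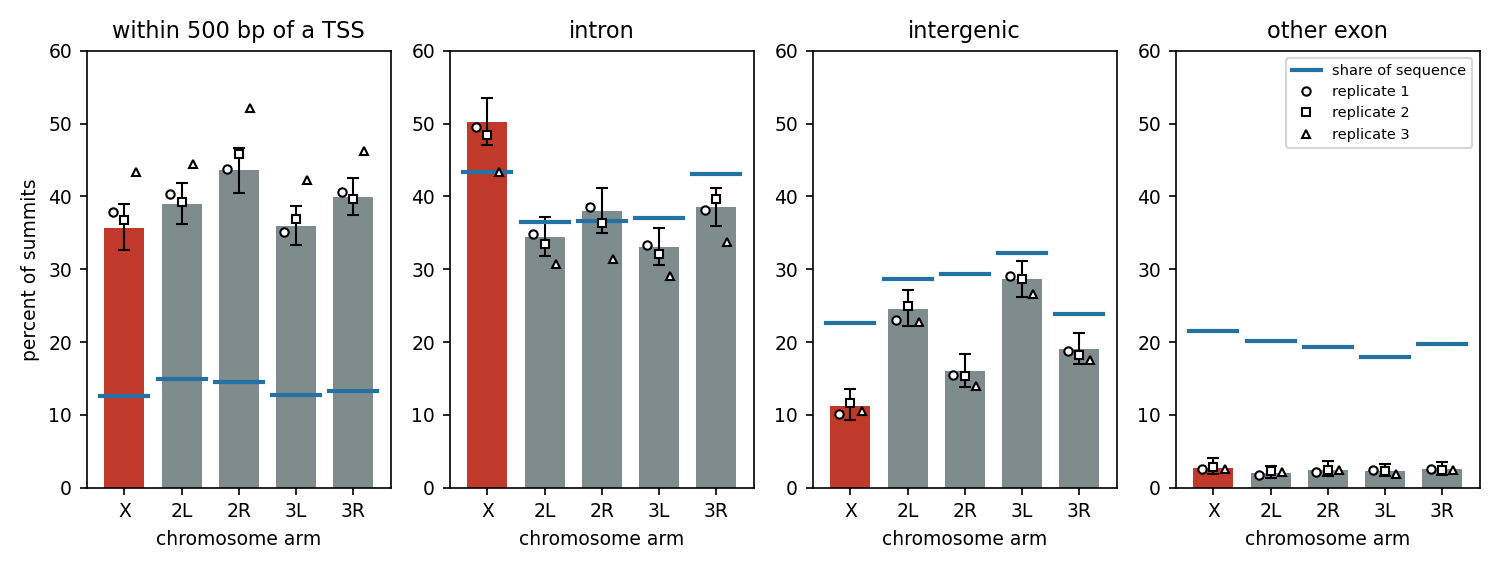
Percent of summits in 4 position classes on X and on each large autosomal arm; bars are the IDR list with 95% Wilson intervals, open symbols the top 5746 peaks of each replicate, and blue lines the share of the arm's sequence in that class. X is highest for introns (50.2%) and lowest for intergenic sequence (11.3%), and in both classes every replicate of X lies beyond all replicates of the other arms.

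Intronic X peaks lay mostly in long genes, like autosomal ones, and were spread over many of them. The 434 with a protein-coding host lay in 195 genes, 2.23 peaks per host, and 1701 autosomal ones lay in 779 genes, 2.18 per host. Hosts over 20 kb held 72.6% of them on X (95% Wilson interval 68.2 to 76.6) and 66.6% (64.3 to 68.8) on the autosomal arms. Single arms had 63.3% (2R, 58.3 to 68.1) to 69.4% (3R, 65.3 to 73.2), and the intervals of 2L, 3L and 3R overlapped that of X. Genes of that length make up 9.02% of protein-coding genes on X and 6.87% on the autosomal arms. Their share of intron sequence is not given here, so no enrichment in long genes is stated. Kirre, an immunoglobulin-family gene of myoblast fusion, hosted 16 intronic peaks, and the teneurin gene Ten-a hosted 13. Tlk followed with 12, CG1677 with 11 and the forkhead gene CHES-1-like with 9. A first intron held 59.0% of intronic X summits (54.4 to 63.5), against 66.3% (64.1 to 68.5) on the autosomal arms. First introns make up 44.5% of intronic sequence on X and 41.4% on the autosomal arms. The intervals of 2L (60.7 to 70.0), 3L (62.5 to 71.4) and 3R (58.5 to 66.7) overlapped that of X, that of 2R (66.7 to 75.9) did not, and this share was not computed per replicate. The median distance from an intronic summit to a TSS was 3400 bp on X and 3388 bp on the autosomal arms. Peaks over 10 kb from any TSS made up 11.2% on X (9.28 to 13.4), against 8.87% (8.1 to 9.71) on the autosomal arms, and 3R had 10.4%. Kirre had 7 of them, Diedel3 and ras, which encodes IMP dehydrogenase of guanine nucleotide synthesis, 5 each, and the homeobox genes B-H1 and Lim1 4 each.

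Gsb-n peaks reached X-linked genes at about the same rate as autosomal ones. Of 2196 protein-coding genes on X, 495 (22.5%, 95% Wilson interval 20.8 to 24.3) were nearest to at least 1 reproducible peak by TSS, against 22.0% (21.3 to 22.8) on the autosomal arms and 22.1% over all arms. Single arms had 19.6% on 2R to 24.2% on 3L. The replicates' own top peaks reached 24.2%, 21.9% and 23.9% of X genes, against 22.6%, 22.3% and 23.9% of autosomal genes, a difference of 0.386 ± 1.07 percentage points (SD, n = 3) that was smaller than its spread (exact two-sided sign-flip permutation p = 1.0). The interval of the difference in the reproducible list ran from -1.37 to 2.43 percentage points, which bounds it without showing equality. A reached X gene had 1.83 peaks on average and an autosomal one 1.87, and 63.4% and 64.4% had only 1.

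CHES-1-like and Tlk were nearest to the most X peaks, 13 each, and had 11, 14 and 12 and 13, 13 and 9 among the top peaks of the 3 replicates. Kirre had 11 peaks, none within 500 bp of a TSS. CG43658, the Ras effector gene spri and Mnt, which encodes a partner of Max that opposes Myc, had 8 each. Myc itself, Hr4, the phosphatase gene Ptpmeg2 and ras had 7 each. The growth regulator gene Myc and its antagonist gene Mnt were thus both among the 10 genes with the most peaks, with top signals of 479.5 and 570.2. The richest 100 kb window of X (3700001 to 3800000) had 17 peaks, of which 13 were nearest to Tlk, 3 to Rala, a small GTPase gene, and 1 to Mnt. These genes also have long territories, the stretch of genome nearest to their TSSs: 65.2 kb for Tlk and 97.3 kb for kirre. Peak counts per gene go by the closest TSS here and below, so a peak inside a gene can count for a neighbour.

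Among genes that count and compensate X, peaks were mainly at Sxl. In the list of sex determination and dosage compensation genes, 2 of 7 protein-coding members were reached (28.6%, beside 22.5% of all X genes). The list is too short to show a likeness or a difference. Sxl had 4 peaks: a pair within 500 bp of a TSS, with signals of 416.6 (ranks 1164, 1525 and 927 in replicates 1, 2 and 3) and 401.8 (ranks 2130, 1172 and 995), and a pair in introns, with signals of 255.4 and 163.1. The ligand gene upd1, an X-linked signal element, had 1 peak 9815 bp from its TSS with a signal of 210.0. The other X-linked signal elements scute (sc), sisA and runt (run) had none, nor had the splicing factor gene snf or mof, which encodes the histone acetyltransferase of the MSL complex. The RNA gene lncRNA:roX1 (chrX:3857230-3862697, minus strand) had its nearest reproducible summit 5941 bp from a TSS. A weak pooled peak lay 13 bp from that TSS, with a signal of 74.34 at rank 14938 of 30000. At lncRNA:roX2 (chrX:11579065-11580432, plus strand) a pooled peak 32 bp from a TSS reached a signal of 137.3 at rank 7050, and its nearest reproducible summit was 1403 bp away.

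Of the 4 genes of the achaete-scute complex 1 was reached, beside 22.5% of all X genes, a count too small for a comparison. In the complex, achaete (ac), sc and lethal of scute, l(1)sc, had none of the reproducible peaks. The nearest summit to the last of these was 29241 bp from its TSS. Asense (ase), expressed in neural precursors, had 2 peaks with a top signal of 209.8. All 4 genes were nearest to pooled peaks, from 2 at ac to 13 at ase. Of the 12 homeobox genes 9 were reached, beside 22.5% of all X genes, and 9.67 ± 0.577 by the strongest peaks of the single replicates (SD, n = 3). B-H1 and Lim1 had 6 peaks each, orthodenticle (oc), a head gap gene, 5, cut (ct) 4, and OdsH 3. The neural column gene vnd had 2, while the Hox cofactor gene exd, acj6 and unc-4 were nearest to 0, although 1 peak lay in an intron of acj6. The strongest oc peak (signal 444.5) was 15750 bp from the TSS in intergenic sequence, with ranks of 1102, 999 and 1617.

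The lists that follow stand beside 22.5% of all X genes, and each is short. Segmentation and head genes were reached in 5 of 12 cases (41.7%). Buttonhead (btd) and its relative Sp1 had 3 peaks each and the kinase gene sgg had 2, the higher with a signal of 864.4 at 221 bp from a TSS (ranks 370, 188 and 342). Giant (gt), run, armadillo (arm), dishevelled (dsh), fused (fu), disco and exd had none of the reproducible peaks, and gt, dsh, fu and exd had none of the pooled ones either. Signalling genes were reached in 12 of 21 cases (57.1%), with 11 peaks at kirre, 6 at Raf, and 4 each at sog, which encodes an inhibitor of BMP ligands, and bifid (bi), a T-box gene. The 6 Raf peaks, 5 in introns and 1 in another exon, lay 849 to 8635 bp from a TSS at signals of 1231, 660.2, 617.3, 576.2, 519.3 and 276.3. The Notch receptor gene (N) was nearest to 2 weak peaks, with signals of 185.6 and 176.6, and the second had no matching summit in replicate 3. Counted by position, 3 reproducible summits lay inside N. Neuronal genes were reached in 7 of 19 cases (36.8%): Ten-a had 6 peaks and the RNA-binding protein gene fne had 4. The RNA-binding protein gene elav had 2, the higher with a signal of 1221, 237 bp from a TSS, at ranks 143, 94 and 105. The ion channel genes para, Sh and cac had 0. Chromatin genes were reached in 5 of 14 cases (35.7%), through ph-p and Smr with 4 each, ph-d with 3, and fs(1)h and e(y)2 with 1 each. Of 14 cytoplasmic ribosomal protein genes on X 12 were reached (85.7%), and 45 of 72 (62.5%) on the autosomal arms, where 22.0% of all protein-coding genes were. All 12 had their peak within 500 bp of a TSS, the highest at RpL22 (signal 427.2). In the replicates 12.0 ± 1.0 X genes and 48.0 ± 4.0 autosomal genes of this family were reached (SD, n = 3). Several lists share members, and their territories differ: the median was 38.8 kb in the homeobox list and 6.74 kb in the chromatin list. The part of territory length in these counts was not tested.

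**Figure D4:**
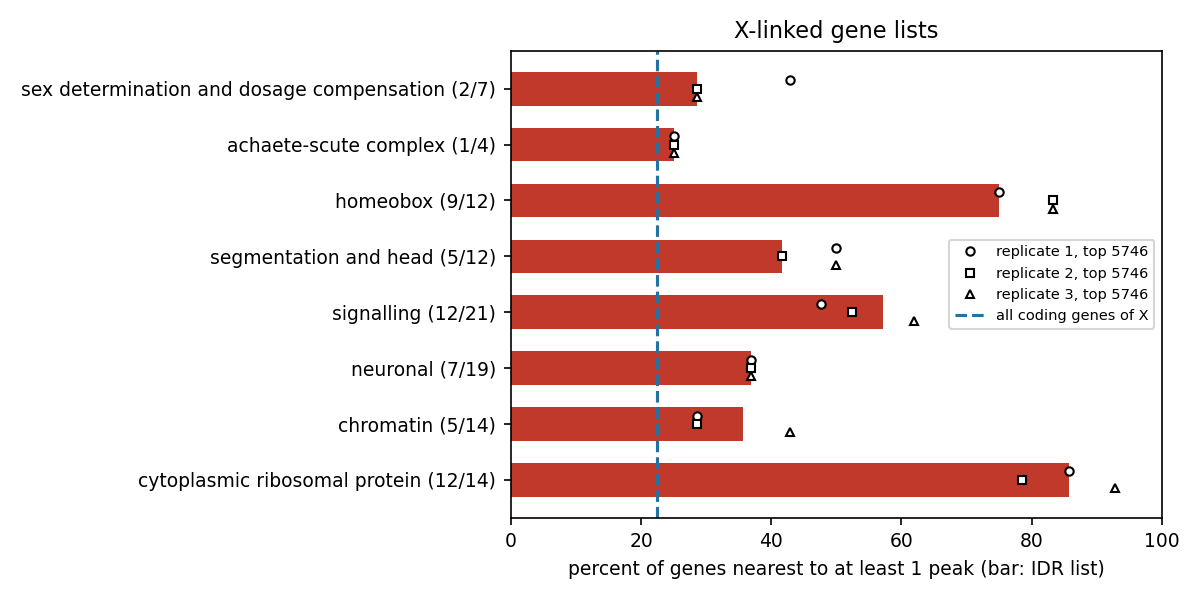
Percent of the protein-coding members of each X-linked gene list nearest to at least 1 peak (horizontal axis); bars are the IDR list, open symbols the top 5746 peaks of each replicate, and the dashed line all coding genes of X (22.5%). The ribosomal protein (12 of 14) and homeobox (9 of 12) lists reach furthest, and the achaete-scute list (1 of 4) lies near the line.

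The sequence under X peaks held runs of T more often than that under autosomal peaks, and 1 of the paired-domain cores less often. Windows of 100 bp to each side of X summits had a median GC content of 35.3%, against 36.3% on the autosomal arms. A run of 8 T bases (TTTTTTTT on either strand) was in 20.5% of X windows (95% Wilson interval 18.0 to 23.2) and in 12.6% (11.7 to 13.5) of autosomal ones. It is also more common on X at large, in 15.8% of all windows of that length tiled along X and in 9.4% of those along the autosomal arms, so the excess over tiled windows was 1.29-fold and 1.34-fold. In the replicates the run was in 19.6% ± 0.354 of X windows and 12.4% ± 0.847 of autosomal windows (SD, n = 3; higher in 3 of 3, exact two-sided sign-flip permutation p = 0.25). The difference of 7.9 percentage points (5.21 to 10.8) was 2.94 in windows of 50 bp to each side. The CA repeat CACACACA was in 5.09% of X windows, less than in tiled X windows (5.77%), while autosomal windows had 4.49% against 3.77% in tiled ones. The difference of 0.602 percentage points was within counting error (-0.796 to 2.32), and in the replicates it was 1.75 ± 0.232 (SD, n = 3; higher on X in 3 of 3, exact two-sided sign-flip permutation p = 0.25). The GA repeat GAGAGAG was in 4.65% of X windows (3.46 to 6.22) and 4.45% of autosomal windows (3.9 to 5.06), with 2.95% and 2.35% in tiled ones.

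Sites known for paired-class factors gave 1 difference between X and the autosomal arms together. The homeodomain core TAATTA was in 16.9% of X windows (95% Wilson interval 14.6 to 19.5) and 17.4% of autosomal windows (16.3 to 18.5), 1.45 and 1.37 times the tiled shares. The difference, -0.462 percentage points (-3.01 to 2.32), was within counting error and changed sign between replicates. The paired-domain core GTCACG was in 3.32% of X windows (2.33 to 4.7) and 4.94% of autosomal windows (4.37 to 5.59), a difference of -1.63 percentage points (-2.8 to -0.13), while 3.56% and 3.62% of tiled windows hold it. Single autosomal arms had 4.5% to 5.83%, and the interval of each overlapped that of X. In windows of 50 bp to each side the difference from the autosomal arms together was -0.73. The replicates gave 3.86%, 3.04% and 4.19% on X, against 4.79%, 5.15% and 4.65% on the autosomal arms, lower in 3 of 3 (-1.17 ± 0.848 percentage points, SD, n = 3; exact two-sided sign-flip permutation p = 0.25). Among X peaks it was in 1.98% of intronic, 3.1% of promoter and 8.82% of intergenic windows, and among autosomal peaks in 3.75%, 5.43% and 6.14% of windows of these classes. X was thus lower than the autosomal arms together in introns and at promoters and higher between genes, contrasts that were not tested. The X shares rest on few windows with the core, among 454, 323 and 102 in these classes. Single autosomal arms had 1.74% to 5.38% in introns, a range that includes X. They had 4.53% to 5.82% at promoters and 4.07% to 8.33% between genes. X lay outside both of these ranges, but close to the upper end of the latter. The other paired-domain core, GTTCC, was in 19.5% of X and 19.7% of autosomal windows, below the tiled shares of 22.1% and 23.6%. The M1BP promoter element GGTCACACT was in 11 X windows (1.22%, 0.681 to 2.17), against 1.7% (1.37 to 2.11), and the palindrome TATCGATA of the DREF factor in 2.77% against 2.58%. The hexamer CAGGTA, known for Zelda, was in 4.09% against 3.84%, and GCAGCAG in 3.21% against 3.66%. Each motif was searched on either strand, none of the others contains GTCACG, and the intervals are not adjusted over the 10 motifs compared. No match shows a bound site.

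These are the strongest X peaks that hold 4 of these motifs within 50 bases of the summit, with at most 30 bases of UTR, given to show the sites in their context. Capitals mark the motif on either strand.
Snx27, GTCACG read on the minus strand, signal 966.2, chrX:5738058-5738158: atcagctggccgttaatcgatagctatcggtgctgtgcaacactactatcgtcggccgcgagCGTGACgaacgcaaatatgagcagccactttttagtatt
B-H1, GAGAGAG, signal 343.5, chrX:17397228-17397328: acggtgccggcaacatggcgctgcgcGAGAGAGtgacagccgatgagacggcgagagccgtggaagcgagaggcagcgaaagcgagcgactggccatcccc
CG3168, TATCGATA, signal 553.8, chrX:6741252-6741352: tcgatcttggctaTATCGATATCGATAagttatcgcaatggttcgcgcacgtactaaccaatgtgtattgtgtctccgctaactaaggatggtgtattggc
Tis11, TTTTTTTT, signal 1227, chrX:12666585-12666685: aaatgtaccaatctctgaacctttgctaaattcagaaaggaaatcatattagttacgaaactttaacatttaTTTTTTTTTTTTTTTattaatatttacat
The Snx27 and B-H1 peaks lay 77 and 200 bp from a TSS, the CG3168 peak was intergenic and the Tis11 peak intronic. The run of T lay in a window of 20.8% GC and the GA repeat in a window of 67.3% GC.

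**Figure D5:**
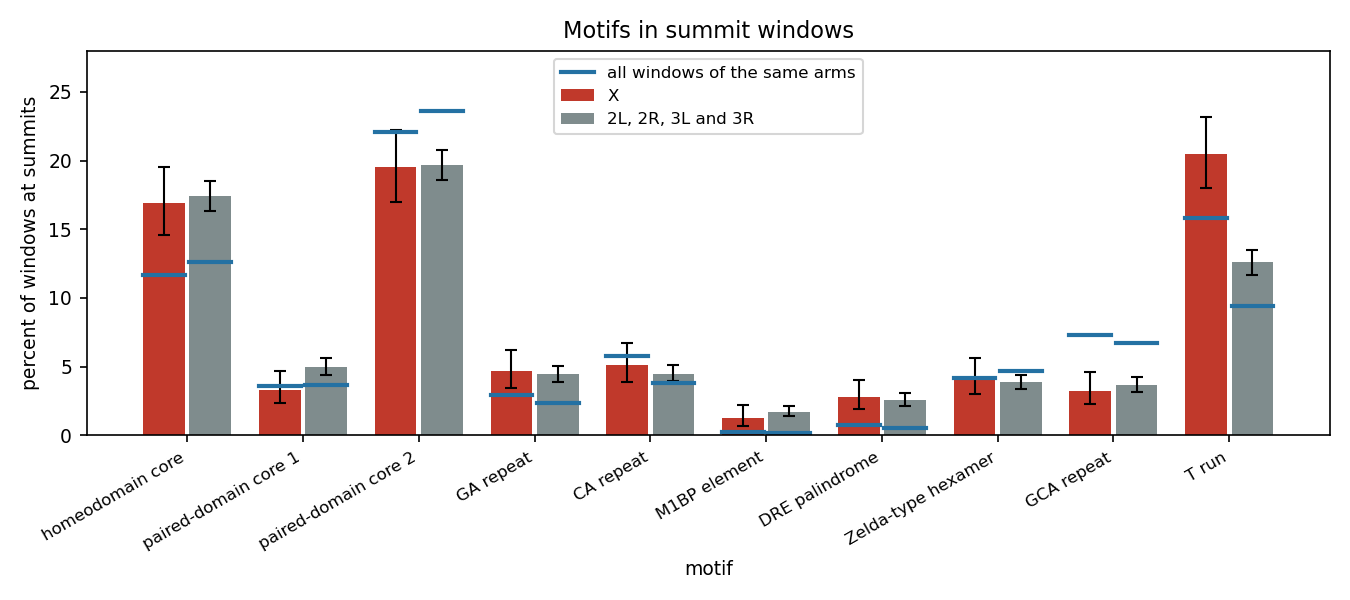
Percent of windows, 100 bp to each side of a summit, that hold each of 10 motifs on X (red) and on arms 2L, 2R, 3L and 3R (grey), with 95% Wilson intervals; blue lines give the share of all windows tiled along the same arms. The T run stands out on X (20.5%, beside 12.6%) together with its tiled share (15.8%, beside 9.4%), and the first paired-domain core is lower on X (3.32%, beside 4.94%) at nearly equal tiled shares.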

How the data were processed

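Peaks were measured in 3 biological replicates of 1 group of whole embryos, from chromatin sonicated to 200 to 800 bp per the labels. Each replicate list and the pooled list were called by the authors against a shared control, and the IDR list was made by the authors from those 4 lists, per the deposited notes. The deposited signal column is on the authors' scale, which differs between lists, so signal was ranked and compared only within a list. The sources used here give no aligner, peak caller or IDR threshold. Depth is unknown.

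Coordinates are dm6. Genes and TSSs came from Ensembl release 115 (transposable elements left out) and sequence from RefSeq's copy of genome release 6. Each summit took the first class that applied: within 500 bp of any TSS, another exon, an intron, or intergenic. Its gene was the protein-coding one whose TSS was closest. Intervals are 95% Wilson intervals for shares, Newcombe intervals for differences and order-statistic intervals for medians. They cover counting error only, and neighbouring peaks are not independent. The spread between replicates came from the strongest 5746 peaks of each replicate list, with an exact two-sided sign-flip permutation test. Python 3.11.15, numpy 2.4.6, pandas 2.3.3 and scipy 1.17.1 were used, and the functions were tested on simulated data. The region rule, the gene lists, the motifs and the alternatives were chosen with earlier results of these data known. The rule for named genes took those at the 15 strongest X peaks, the 10 X genes with most peaks, up to 5 members per list by peak number, and fixed genes such as Sxl, roX1, N and elav; list members without peaks, the CG3168, Snx27, Diedel3, Rala and CG1677 genes, and the windows with motifs were named after their values were seen. The listed name e(y)1 was matched to Taf9. The values of 1 list member are not reported here.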

Additional observations from a re-analysis of the deposited data

How the results depend on the processing

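There is 1 group, so no groups could be paired by replicate; X was paired with the autosomal arms within each replicate throughout. The ratio of peak density (0.869) was 0.998 per protein-coding gene, 0.942 in the pooled list and 0.789 for peaks within 500 bp of a TSS, and ranged from 0.887 to 0.893 without 1 replicate. The ratio of median signal (0.994) was 1.0 without arm 2L (just above parity), 0.989 without 2R, 0.983 without 3R, 0.952 in the pooled list, 1.03 for TSS peaks and 0.988 for the others, and ranged from 0.984 to 0.996 without 1 replicate, so no direction of signal is stated. The TSS share difference (-3.66 percentage points) was -5.06 at 250 bp, -2.73 at 1000 bp, -1.67 with protein-coding TSSs, -2.82 in the stronger peaks (signal at or above the median of the list) and 0.842 in the pooled list; without 1 replicate it ran from -3.35 to -3.11. The difference in genes reached (0.491) was -0.409 within 1 kb of a TSS and -0.58 with gene bodies or 2 kb around them, both of the opposite sign, and 0.534 to 0.799 without 1 replicate. The TAATTA difference (-0.462) was 1.07 for peaks away from a TSS and ran from -0.952 to -0.504 without 1 replicate. Among the other motifs the difference changed sign for GAGAGAG away from a TSS (-0.637) and in windows of 50 bp to each side (-0.169), GTTCC without replicate 1 (0.0171) and without replicate 2 (0.395), CACACACA in those narrower windows (-0.0794) and in the stronger peaks (-0.134), GGTCACACT in the stronger peaks (0.571), and GCAGCAG in those narrower windows (0.261), away from a TSS (0.293) and in the stronger peaks (0.397). Peaks on X found in all replicates were 64.6% at 50 bp and 98.7% at 250 bp. Autosomal shares at these distances are not given, so the comparison with X holds for 100 bp only. Without 1 replicate the intron difference ran from 14.1 to 14.4 and the intergenic one from -11.6 to -11.4; their values in the pooled list and the stronger peaks were chosen after seeing the data. The cause of each of these changes was not tested. The unknown read depth limits every statement on weak peaks, and sets without a replicate hold fewer peaks. The reproducible list was made by the authors from all 3 replicates, so a replicate left out here still shaped it. The values without 1 replicate are therefore no independent check.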
